A study of Oryctolagus cuniculus with 6 samples.

Results

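The coagulation and plasminogen system genes described here were 9 genes chosen by name from the 28788 genes in the files, and each was matched by its symbol. They were tissue factor (F3), tissue factor pathway inhibitor (TFPI), thrombomodulin (THBD), protein S (PROS1), the thrombin receptor (F2R), urokinase (PLAU), the urokinase receptor (PLAUR), tissue plasminogen activator (PLAT) and protease nexin-1 (SERPINE2). Retinal RNA was sequenced from 3 normal samples and 3 samples of a rabbit model of proliferative vitreoretinopathy (PVR), a scarring disorder of the retina. In the model, adult rabbits underwent scleral puncture, part of the vitreous body was removed and platelet-rich plasma was injected in its place. The sources used here describe no procedure for the normal group, and they give neither strain, sex, exact age and time after injection nor whether each sample was a separate animal. The p-values therefore measure the spread between these samples, which may be technical.

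In the clotting cascade, tissue factor on cell surfaces binds factor VII and starts the reactions that end in thrombin, and TFPI blocks this start. Thrombin cleaves fibrinogen and signals to cells through F2R. Thrombomodulin binds thrombin and turns it towards activation of protein C, for which protein S is a cofactor. Plasminogen is cut to plasmin, which dissolves fibrin and cleaves matrix, by PLAT and PLAU. PLAUR holds PLAU at the cell surface, and SERPINE2 inhibits thrombin and both activators. In the retina, protein S is also known as a ligand of MERTK, the receptor with which the pigment epithelium takes up shed photoreceptor tips.

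The total was between 31904593 and 43035080 counted reads per sample. The photoreceptor genes that mark retina were abundant in every sample, with a summed level of 9 rod and cone genes between 28345 and 45267 CPM (counts scaled to a common library total). Normal replicate 2 stood apart in lens genes, whose summed level over 9 genes was 31166 CPM there, 12.1 and 15.2 CPM in the other normal samples and 272 to 308 CPM in PVR. Of the marker genes tested for other cells, 2 of 7 were lower in PVR past an adjusted p of 0.05 (edgeR) for Mueller glia, 2 of 7 for pigment epithelium, 2 of 7 for oligodendrocytes and 1 of 6 for pericytes, beside 0.615% of all genes tested. For these 4 lists the counts at an unadjusted p under 0.05, in either direction, were 3, 4, 7 and 1. The share of all genes was 21.2%. DESeq2 called 2, 3, 6 and 1, against 8.75% of the genes it tested. Among the genes with an unadjusted p under 0.05 from edgeR, GFAP of Mueller glia and BEST1 of pigment epithelium were higher in PVR. Their log2 fold changes were 1.39 (adjusted p = 0.143 from edgeR) and 0.53 (adjusted p = 0.215 from edgeR). All 7 oligodendrocyte genes were lower in every PVR sample than in every normal sample, a pattern seen in 14.6% of all genes, and their median log2 fold change was -3.77. No gene passed among 9 rod and cone, 11 inner retinal, 8 lens and 3 red cell genes, where 4, 0, 1 and 1 genes had an unadjusted p under 0.05, and DESeq2 called 1, 0, 0 and 1. The part of these genes in the results was not tested.

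Thrombomodulin rose in PVR, and it was the only one of the 9 genes past the threshold of an adjusted p under 0.05. THBD had an FPKM, the read count scaled by gene length and by the total of the sample, of 2.35, 1.55 and 2.53 in normal replicates 1 to 3. In PVR replicates 1 to 3 the FPKM of THBD was 7.36, 4.68 and 9.91. The groups did not overlap, and the lowest PVR sample was 1.85-fold above the highest normal sample. The mean FPKM of THBD was 2.14 ± 0.522 (SD, n = 3) in normal and 7.32 ± 2.62 (SD, n = 3) in PVR. THBD had a log2 fold change of 1.71 with a standard error of 0.31 (edgeR quasi-likelihood test, adjusted p = 0.0463 by the method of Benjamini and Hochberg over 18697 genes). This was a fold of 3.28, with a 95% interval from 1.99 to 5.39.

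The count of 1 higher gene among 9 stood beside 1.09% of all genes tested that were higher in PVR by the same rule. THBD was also the 1 gene of the 9 whose groups did not overlap with every PVR sample higher on the scaled counts, a pattern seen in 13.4% of all genes. By an unadjusted p under 0.05 the count among the 9 was also 1, against 21.2% of all genes. DESeq2 called THBD alone among the 9, against 8.75% of the genes it tested. With the added requirement of a log2 fold change over 1, which THBD also met, the share of all genes was 0.69%. By the rank of its p, THBD was at position 274 of 18697. The call was close to the threshold and did not survive the loss of most single samples, although every such fit kept the gene higher in PVR. The adjusted p from edgeR was 0.134 without normal replicate 1, 0.143 without normal replicate 2 and 0.0518 without normal replicate 3. It was 0.225 without PVR replicate 1, 0.0334 without PVR replicate 2 and 0.0497 without PVR replicate 3. The log2 fold change of THBD over these 6 fits was between 1.41 and 1.96.

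**Figure D1:**
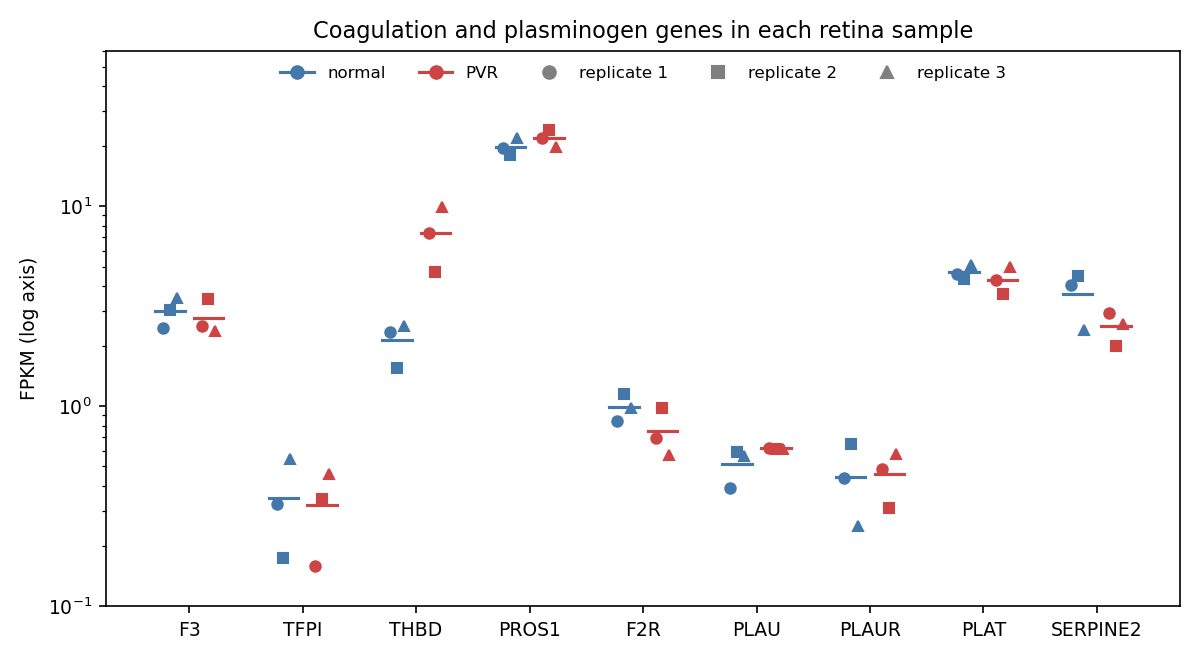
FPKM (log axis) of the 9 genes in each sample, with normal samples in blue, PVR samples in red, a symbol for each replicate and a line at each group mean. The 3 PVR values of THBD lie between 4.68 and 9.91, all above the normal samples, whereas the groups overlap for 7 of the other genes and lie 1.04-fold apart for PLAU.

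PROS1 was the most abundant of the genes per length. Its FPKM was 19.6, 18.0 and 22.0 in normal and 22.0, 24.2 and 19.8 in PVR. These groups overlapped, and PROS1 was also the most precisely measured of the genes, with 3804 to 4792 counts per sample. Its log2 fold change was 0.08 (standard error 0.09, adjusted p = 0.662 from edgeR), and the 95% interval of the fold was 0.906 to 1.23. PROS1 was higher than 86.9% of all genes with a count by mean FPKM in normal and than 88.1% in PVR.

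In the normal samples the order of mean FPKM was PROS1, PLAT, SERPINE2, F3, THBD, F2R, PLAU, PLAUR and TFPI. The ranges of neighbours overlapped between PLAT and SERPINE2, SERPINE2 and F3, F3 and THBD, PLAU and PLAUR, and PLAUR and TFPI. In PVR, THBD moved from the fifth place to the second, between PROS1 and PLAT, although its range overlapped that of PLAT. THBD held 6.72%, 4.55% and 6.68% of the summed FPKM of the 9 genes in normal replicates 1 to 3. Its share in PVR replicates 1 to 3 was 18.0%, 11.6% and 23.7% (two-sided exact permutation test, p = 0.1, the smallest that 3 samples against 3 allow). This share was computed after the THBD values had been seen.

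The starter of clotting and its inhibitor did not pass the test. F3 had an FPKM of 2.47, 3.03 and 3.47 in normal and 2.52, 3.42 and 2.39 in PVR, so that the PVR samples spanned nearly the same range. For F3 the log2 fold change was -0.18 (standard error 0.23, adjusted p = 0.673 from edgeR). TFPI was the lowest of the 9 genes, with an FPKM of 0.326, 0.174 and 0.545 in normal and 0.159, 0.345 and 0.460 in PVR. Its counts were 25, 14 and 43 in normal and 10, 22 and 39 in PVR, and samples of each group were 2.89-fold to 3.13-fold apart. TFPI had a log2 fold change of -0.16 ± 0.58 (edgeR estimate with its standard error, adjusted p = 0.89), which was 0.30 without normal replicate 3 and 0.16 without PVR replicate 1. It was -0.47 without normal replicate 2 and -0.54 without PVR replicate 3. A 2-fold change of TFPI in either direction lay within its 95% interval and was not detectable at this depth and spread.

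F2R, through which thrombin signals to cells, had an FPKM of 0.844, 1.15 and 0.978 in normal and 0.691, 0.984 and 0.569 in PVR. PVR replicates 1 and 3 were below all normal samples, but PVR replicate 2 lay inside their range. This gave F2R a log2 fold change of -0.48 ± 0.30 (edgeR estimate with its standard error, adjusted p = 0.379).

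Neither plasminogen activator passed the test. PLAT had an FPKM of 4.59, 4.35 and 5.06 in normal and 4.26, 3.66 and 4.97 in PVR. Its log2 fold change was -0.19 (standard error 0.17, adjusted p = 0.542 from edgeR), with overlapping groups. PLAU had an FPKM of 0.389, 0.590 and 0.563 in normal and 0.622, 0.613 and 0.614 in PVR. On this scale the PVR samples all lay above the normal samples by a small margin (exact permutation test of FPKM, two-sided, p = 0.1, the lowest possible). After TMM scaling of the libraries the groups overlapped, since normal replicate 2 had 1.59 CPM and the PVR samples had 1.52 to 1.57 CPM. PLAU had a log2 fold change of 0.19 ± 0.31 (edgeR estimate with its standard error, adjusted p = 0.747). PLAU had 39 to 68 counts per sample, so that the counting error alone was 13.3% of the PVR mean, against a coefficient of variation of 0.757% between the PVR samples.

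PLAUR, the receptor of PLAU, had an FPKM of 0.437, 0.644 and 0.251 in normal and 0.485, 0.311 and 0.576 in PVR. Both groups were spread over the same range, from 13 to 34 counts. Its log2 fold change was -0.03 (standard error 0.52, adjusted p = 0.981 from edgeR), and the sign of this value turned in 7 of the 15 alternative fits. It was 0.37 without normal replicate 2 and 0.19 without PVR replicate 2. PLAUR is also known from leukocytes, whose marker genes were therefore examined alongside it. Over 11 macrophage and microglia genes the summed level was 32.6 to 71.3 CPM in normal and 85.0 to 124 CPM in PVR. All 11 had a positive log2 fold change and 9 had groups that did not overlap with every PVR sample higher, against 13.4% of all genes, but none had an adjusted p under 0.05 from edgeR. By an unadjusted p under 0.05 there were 6, against 21.2% of all genes, and DESeq2 called 3, against 8.75%. Of 3 neutrophil genes tested, S100A8 and S100A9 were higher past an adjusted p of 0.05 from edgeR, beside 1.09% of all genes. DESeq2 called 2 of the 3, against 8.75% of the genes it tested. The log2 fold change was 4.27 for S100A8 (adjusted p = 0.0486 from edgeR) and 2.96 for S100A9 (adjusted p = 0.0416 from edgeR). CXCR2 had an adjusted p of 0.619 from edgeR. CSF3R had 2, 0 and 1 counts in normal and 6, 6 and 2 in PVR, too few to be tested. The granule gene MPO was at 0 counts in every sample. In whole retina, more cells of a type and more RNA per cell cannot be told apart.

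SERPINE2 had the lowest log2 fold change of the 9 genes in the fit of all samples, but it did not pass the test. Its FPKM was 4.02, 4.49 and 2.42 in normal and 2.93, 2.01 and 2.58 in PVR. Normal replicate 3 lay within the PVR range, and the other normal samples were above all PVR samples. The log2 fold change of SERPINE2 was -0.61 (standard error 0.29). In edgeR its p was 0.0667 before and 0.267 after adjustment. Without normal replicate 3 it was -0.84 with an adjusted p of 0.102, and without normal replicate 2 it was -0.41 with an adjusted p of 0.538.

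**Figure D2:**
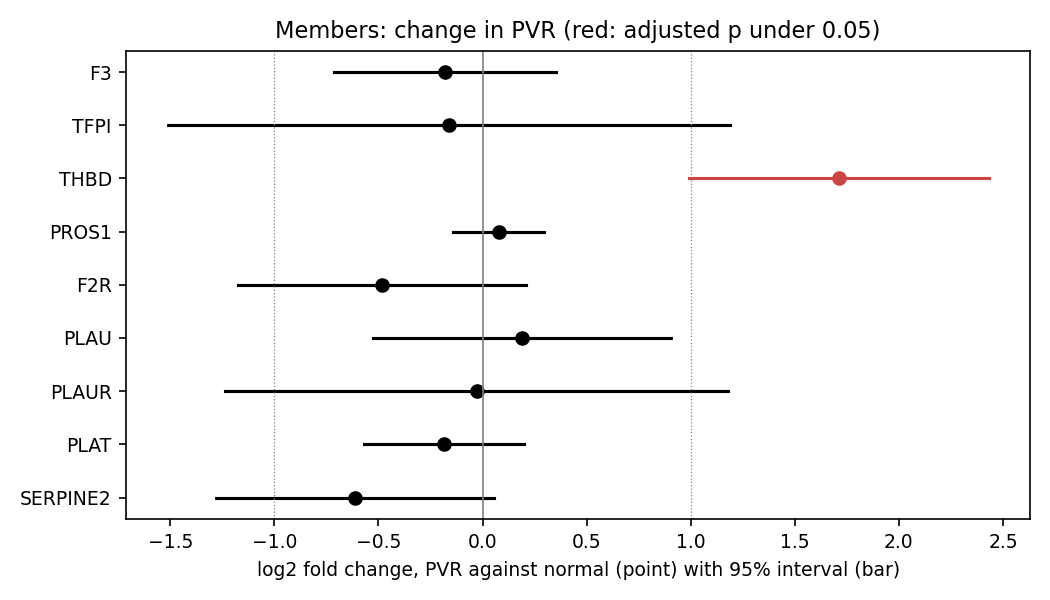
Log2 fold change of each of the 9 genes in PVR against normal (points) with its 95% interval from the edgeR fit (bars), with dotted lines at a log2 fold change of 1 in either direction. THBD at 1.71 is the one gene whose interval does not reach 0, and the intervals of TFPI and PLAUR cross both dotted lines.

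The precision of these 8 genes differed. The 95% interval of the log2 fold change lay within a 2-fold change either way for 4 of them, F3, PROS1, PLAU and PLAT. It reached a 2-fold decrease for F2R and SERPINE2. For TFPI and PLAUR it reached a 2-fold change in both directions, so that neither direction was bounded to that size. The median log2 fold change of the 9 genes was -0.16, beside -0.01 for all genes tested, and 3 of the 9 values were positive.

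The ratio of an activator to its inhibitor within a sample does not depend on the scaling of the libraries, and 3 such pairs were compared. The ratio of F3 to TFPI in FPKM was 7.59, 17.4 and 6.37 in normal and 15.8, 9.90 and 5.18 in PVR, with no order between the groups (two-sided exact permutation test of the log2 ratio, p = 1). The ratio of PLAU to SERPINE2 was 0.0967, 0.132 and 0.233 in normal and 0.212, 0.305 and 0.238 in PVR. PVR replicate 1 lay below normal replicate 3, and the difference of the mean log2 ratios was 0.79 (two-sided exact permutation test, p = 0.2, Benjamini-Hochberg adjusted p = 0.6 over the 3 pairs). It was between 0.51 and 1.14 with single samples left out. For PLAT to SERPINE2 the ratio was 1.14, 0.969 and 2.09 in normal and 1.45, 1.82 and 1.93 in PVR, with a log2 difference of 0.38 (two-sided exact permutation test, p = 0.4, adjusted p = 0.6). Leaving out normal replicate 2 gave 0.15 for this difference, and leaving out normal replicate 3 gave 0.71. A test of 3 samples against 3 cannot give a p under 0.1.

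Beyond the 9 genes, 44 further genes of the pathway were examined, of which 37 were matched and 22 had enough counts to be tested. None was higher and 1 was lower past an adjusted p of 0.05 by edgeR, beside 0.615% of all genes that were lower. At an unadjusted p under 0.05 there were 4, against 21.2% of all genes tested, and DESeq2 called 1, VWF, against 8.75% of all genes it tested. The median log2 fold change of the 22 was 0.09, and 12 values were positive. The 15 genes with too few counts never exceeded 21 counts in a sample. Among them the fibrinogen chain genes FGA and FGG and protein C (PROC) had no count in any sample, and FGB had at most 2. Plasminogen (PLG) had between 1 and 6 counts. These genes are known for their expression in liver.

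VWF, which carries factor VIII and tethers platelets to vessel walls, was the gene that fell. Its FPKM was 0.664, 1.72 and 2.69 in normal and 0.0498, 0.0456 and 0.0659 in PVR, so that the lowest normal sample was far above all PVR samples. VWF had a log2 fold change of -5.02 ± 0.55 (edgeR estimate with its standard error, adjusted p = 0.0119). Its adjusted p was 0.106 without PVR replicate 1 and under 0.05 without any other single sample. THBD and VWF are both known as genes of vessel endothelium, and they moved in opposite directions. Over normal replicates 1 to 3 the summed oligodendrocyte genes rose as VWF did, at 208, 499 and 1150 CPM. In PVR their sum was 125 to 148 CPM. The summed pericyte genes rose too, at 21.7, 35.7 and 58.8 CPM, and were at 20.3 to 32.0 CPM in PVR. The summed endothelial marker genes did not, at 633, 614 and 582 CPM, but most of that sum came from KDR and FLT1. By FPKM, CDH5, CLDN5, TEK, ERG, ROBO4 and FLT1 rose over normal replicates 1 to 3, and KDR, PECAM1, TIE1 and EMCN did not. The part of cell content in the fall of VWF was not tested.

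Of 10 other endothelial genes tested, CDH5 was lower past the threshold, beside 0.615% of all genes, and the other 9 were not past it. The median log2 fold change of the list was -1.51, and 7 of the 10 values were negative. DESeq2 called 3 of them, CDH5, CLDN5 and ERG, all lower in PVR, against 8.75% of the genes it tested. At an unadjusted p under 0.05 from edgeR there were 5, in either direction, against 21.2% of all genes. Of these 5, FLT1 was higher in PVR (log2 fold change 0.27, adjusted p = 0.143 from edgeR). The summed level of the 10 genes was 582 to 633 CPM in normal and 711 to 742 CPM in PVR, most of it from the abundant KDR and FLT1. PECAM1, the adhesion molecule of endothelial junctions, had 39, 84 and 69 counts in normal and 51, 90 and 67 in PVR. CLDN5, a tight junction gene, had 43, 139 and 296 counts in normal and 11, 3 and 24 in PVR (adjusted p = 0.0781 from edgeR). The part of these endothelial genes, and of the leukocyte genes given above, in the THBD result was not tested.

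PROCR, the endothelial receptor that presents protein C to the complex of thrombin and thrombomodulin, had an FPKM of 0.651, 0.593 and 0.708 in normal and 1.29, 1.13 and 0.721 in PVR. The groups did not overlap but nearly met at PVR replicate 3, and the log2 fold change was 0.61 (standard error 0.30, adjusted p = 0.279 from edgeR). PROCR, FGA, FGB, FGG, PROC, PLG and ERG were chosen for naming after their values had been seen. The same holds for F2 and for the marker genes GFAP, BEST1, FLT1, PPBP, ITGA2B, TUBB1, GP9 and GP1BB. No naming rule picked the markers CLDN5, PECAM1, CD163, ITGAM and PTPRC, and the marker lists were chosen with earlier results known.

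**Figure D3:**
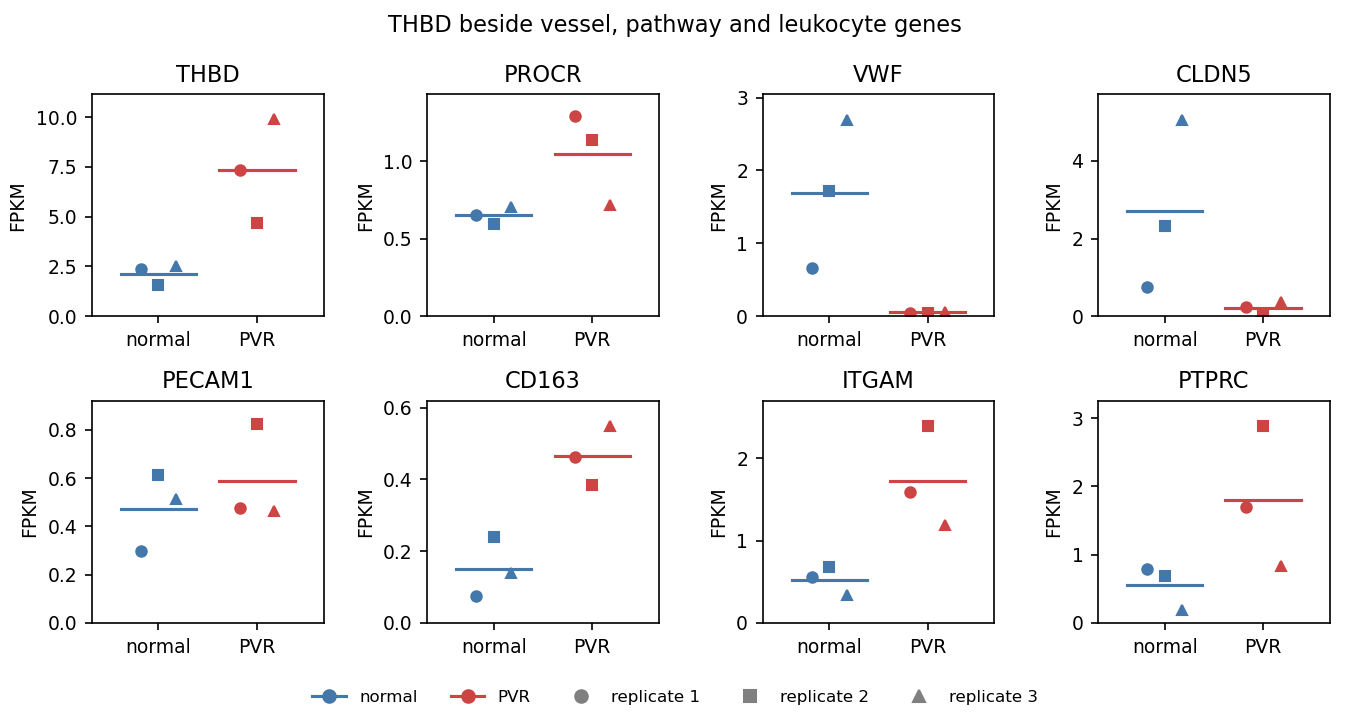
FPKM (linear axes from 0) of THBD, the pathway gene PROCR, 3 endothelial genes (VWF, CLDN5, PECAM1) and 3 leukocyte genes (CD163, ITGAM, PTPRC) in each sample, with a line at each group mean. VWF and CLDN5 are lower in all 3 PVR samples than in all normal samples, whereas THBD, PROCR, CD163, ITGAM and PTPRC are higher in all 3. Of the endothelial markers not shown, CDH5, TIE1 and ERG were lower and FLT1 higher in every PVR sample on the scaled counts. TEK, KDR, EMCN and ROBO4 overlapped. Of the macrophage and microglia markers tested but not shown, C1QA and C1QB overlapped and the others were higher in every PVR sample.

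Surface proteins that bind plasminogen, its activators or their complexes did not pass the test, nor did SERPINI1. ANXA2, known to bind PLAT and plasminogen on cells, had an FPKM of 6.34, 11.1 and 12.8 in normal and 16.5, 17.8 and 14.4 in PVR (log2 fold change 0.62, adjusted p = 0.217 from edgeR), and the log2 fold change was 0.37 without normal replicate 1. Its partner S100A10 had 156, 2087 and 143 counts in normal and 114, 167 and 160 in PVR. The high value was in normal replicate 2, the sample with the lens genes. The log2 fold change of S100A10 was -2.34 with all samples (adjusted p = 0.241 from edgeR) and 0.08 without normal replicate 2 (adjusted p = 0.903). LRP1, the receptor that clears complexes of proteases and serpins, had a log2 fold change of -0.06 (edgeR, adjusted p = 0.76), with 11548 to 17253 counts per sample. SERPINI1, a neuronal inhibitor of PLAT, had an FPKM of 62.8, 51.3 and 73.9 in normal and 87.7, 55.4 and 114 in PVR (log2 fold change 0.39, adjusted p = 0.408 from edgeR). Its log2 fold change was 0.63 without PVR replicate 2 (edgeR, adjusted p = 0.167) and 0.11 without PVR replicate 3 (edgeR, adjusted p = 0.77).

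The receptors of protein S and of its relative GAS6, and the enzymes that make protein S functional, did not pass the test either. MERTK had an FPKM of 7.44 ± 0.507 (SD, n = 3) in normal and 8.96 ± 0.872 (SD, n = 3) in PVR (log2 fold change 0.20, adjusted p = 0.369 from edgeR). For AXL, known as a receptor of GAS6, the log2 fold change was -0.01 (adjusted p = 0.974 from edgeR). TYRO3 had an FPKM of 15.4, 15.9 and 11.9 in normal and 11.1, 10.1 and 12.5 in PVR (log2 fold change -0.43, adjusted p = 0.166 from edgeR). GGCX, the vitamin K dependent carboxylase, had an FPKM of 7.37, 7.31 and 7.31 in normal and 8.88, 10.5 and 8.42 in PVR (log2 fold change 0.27, adjusted p = 0.16 from edgeR). VKORC1, which recycles vitamin K, had a log2 fold change of -0.14 (edgeR, adjusted p = 0.546).

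**Figure D4:**
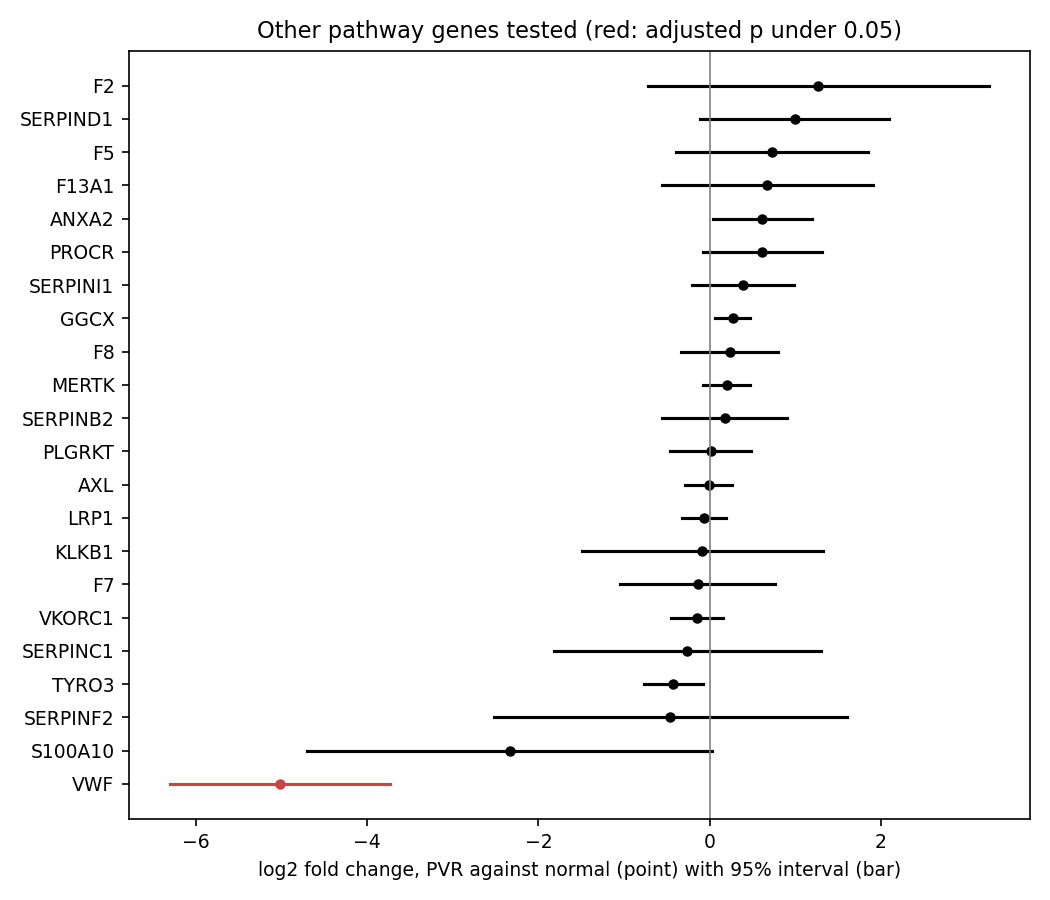
Log2 fold change in PVR against normal (points) with 95% intervals (bars) for the 22 further pathway genes tested. VWF at -5.02 is the gene past an adjusted p of 0.05 (red), and F2 at 1.27 has the highest value with an interval that crosses 0. F2 had 1, 5 and 16 counts in normal and 8, 17 and 26 in PVR.

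Platelet transcripts were looked at because the model uses platelet-rich plasma. Of 10 platelet genes listed, 8 were found and 6 tested, and none passed the test by edgeR or DESeq2 or had an unadjusted p under 0.05. Their summed level was 6.44 to 10.1 CPM in normal and 8.37 to 9.34 CPM in PVR. Most of this sum came from GP1BB, with 83 to 217 counts per sample, and ITGA2B, with 55 to 119. PPBP, the platelet chemokine precursor, had 1, 18 and 0 counts in normal and 11, 25 and 28 in PVR, and TREML1 had no count. The PPBP log2 fold change of 1.80 was the highest of the 6 tested (adjusted p = 0.394 from edgeR), with overlapping groups. Of the 6 values, 3 were positive. Every PVR sample was below every normal sample for ITGA2B (log2 fold change -0.53) and TUBB1 (-0.94), and above for GP9 (0.79). Such patterns were seen in 14.6% of all genes for lower and 13.4% for higher.

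The genes whose values over the 6 samples were most like those of THBD were WFDC1, IL1R1 and ABI3BP. Likeness was the root mean square difference of log2 CPM after each gene was centred on its own mean, over 11716 candidate genes, and it was 0.22, 0.23 and 0.23. WFDC1 is a secreted protein with a whey acidic protein domain. Its FPKM was 7.23, 5.47 and 8.79 in normal and 18.8, 10.9 and 29.3 in PVR. The log2 fold change of WFDC1 was 1.40 (edgeR, adjusted p = 0.0947). IL1R1, the receptor of interleukin-1, had a log2 fold change of 1.59 (edgeR, adjusted p = 0.0973). ABI3BP, a matrix protein, had a log2 fold change of 1.91 (edgeR, adjusted p = 0.0225).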

How the data were processed

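The authors trimmed the reads with fastp, used HISAT2 for alignment to the rabbit assembly OryCun2.0 and assigned reads to genes with htseq-count. They deposited raw counts, and also FPKM values that rest on the same counts with the library total as depth. The annotation release, the definition of gene length and the strand setting are not given in the sources used here, so reads of overlapping antisense genes cannot be told apart. Positions and sequences are left out, since no OryCun2.0 annotation entered the work.

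Counts of all genes were tested in R 4.3.3 with edgeR 4.0.16 (default low-count filter, TMM, quasi-likelihood test with the condition as its term), with Benjamini-Hochberg adjustment over 18697 genes. Genes were called at an adjusted p under 0.05 and, where stated, a log2 fold change over 1. The study's methods name DESeq2, which was an alternative. Standard errors were derived from the F statistic of edgeR (the absolute log2 fold change over its root), and 95% intervals use the degrees of freedom of that test. Marker sums are CPM of the library total. Exact permutation tests used SciPy 1.17.1, and the code was tested on simulated data. Alternatives were DESeq2 1.42.0, RLE and upper-quartile factors, no count filter or a minimum of 10 counts in each sample, voom in limma 3.58.1, limma with log2(FPKM + 0.1) or log2(FPKM + 1), the replicate number as a block, and each of the 6 samples left out.

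The 9 genes, the pathway list and the marker lists were chosen with earlier results of these data known. Named pathway genes were those with an adjusted p under 0.05 or a mean log2 CPM of at least 3, unless marked. Genes were matched by symbol, or through RefSeq's names for the assembly mOryCun1.1. Of 44 pathway genes 7 were not matched, and 1 further listed gene is not reported here. For THBD, the 3 genes with the most similar profile were sought among symbols with a mean log2 CPM of at least 1. Intervals cover the spread between samples, and small counts carry counting error besides.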

Additional observations from a re-analysis of the deposited data

How the results depend on the processing

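The depth limits TFPI, PLAUR and PLAU most, and 3 samples against 3 limit every test. THBD stayed higher in PVR in all 15 alternatives, with a log2 fold change from 1.37 to 1.96, and its adjusted p was under 0.05 in 8 of them. The count of genes past the threshold among the 9 was 1 with all samples, and the count that also passed the fold threshold was 1. Both were 0 with limma-voom (THBD adjusted p 0.0741), with limma on log2(FPKM + 1) (0.0659) and on log2(FPKM + 0.1) (0.0523), and both were between 0 and 1 with single samples left out. DESeq2 gave THBD an adjusted p of 2.09e-07. The count of lower pathway genes, 1 with all samples, was 0 with limma-voom and on log2(FPKM + 1), where the adjusted p of VWF was 0.116 and 0.0842, and between 0 and 1 with single samples left out. The count of higher pathway genes was 0 with all samples and in all 15 alternatives. The causes of these differences were not tested. The other 8 genes passed the threshold in none of their alternatives.

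Some values near 0 turned sign, none of them past the threshold. For PLAUR the log2 fold change was 0.0018 with upper-quartile factors, 0.059 with limma-voom, 0.018 and 0.070 on log2(FPKM + 1) and log2(FPKM + 0.1), 0.029 with the replicate block and from -0.32 to 0.37 with single samples left out. For AXL it was 0.021 with upper-quartile factors, 0.0015 for at least 10 counts in every sample, 0.053 and 0.063 on the FPKM scales and from -0.069 to 0.038 with single samples left out. For LRP1 it was 0.0085 and 0.0089 on the FPKM scales. TFPI ranged from -0.54 to 0.30 and S100A10 from -2.83 to 0.081 with single samples left out. The log2 difference of the ratio of F3 to TFPI was -0.02 with all samples and from -0.40 to 0.42 with single samples left out, turning positive without normal replicate 2 (0.42) and without PVR replicate 3 (0.41).

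Over all genes, 318 were past an adjusted p of 0.05, against 1755 with DESeq2, 92 with the replicate block, and 22 to 650 with single samples left out. In the replicate block, the replicate numbers gave THBD a log2 fold change of 1.67 (edgeR, adjusted p = 0.0311) and VWF one of -4.88 (edgeR, adjusted p = 0.0184), and changed no call among the 9 genes or the pathway genes. The deviations of same-numbered samples correlated by -0.01, 0.07 and 0.04, and 3 of the 6 samples correlated best with their own number, so that the numbers were not taken as pairs.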
